A study of Mus musculus with 9 samples.

Results

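The strongest MyoD1 sites of both conditions were 253 genomic regions that stood near the top of the height order in every CUT and RUN library, with and without doxycycline (dox). They were drawn from 4838 regions with a peak in all 6 libraries, called shared regions here, out of 58309 regions in any library. The members were selected on peak height: overlapping or touching peaks of the 6 lists were merged, each shared region was given the highest maximum signal of each library, and a region entered when that height lay at or above the 85th percentile of shared regions in all 6 libraries. Membership is therefore a description of height, and tests were kept to sequence, position, peak width and the contrast between conditions.

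The cells were C2C12 MyoD1::Halo + iMyoD1, a clonal line of mouse C2C12 myoblasts, muscle precursor cells that fuse into myotubes when serum is withdrawn. All 6 libraries come from cells with both alleles, a 3xFlag-Halo tag at the N terminus of endogenous Myod1 and a 3xFlag-Halo-MyoD1 transgene behind the dox-inducible TRE3GS promoter. All cultures were switched to differentiation and collected 6 h later, the 3 no dox cultures without dox and the 3 +dox cultures with dox from the same moment, and the antibody was anti-Flag M2. A peak can thus come from endogenous or induced protein, and the line is 1 clone. The 3 wild-type libraries were not analysed here, so no untagged background stands beside the heights.

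MyoD1 is a basic helix-loop-helix transcription factor that binds DNA with an E protein partner at E-boxes, sites of the form CANNTG, and prefers the palindrome CAGCTG. It switches on skeletal muscle genes and it also binds many places whose nearest gene does not respond. In CUT and RUN, nuclease tethered to the antibody releases the DNA around the bound protein, so the height of a peak follows how often a site was cut in the culture, and more protein per cell cannot be told apart from more cells with protein at the site.

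The sequence under the strongest members is shown first, because the palindromic E-box is what most of them held at the summit. The lines give the plus strand of GRCm38, the assembly behind mm10, around the middle of the no dox summits of the 10 members with the highest lowest percentile, with CAGCTG in capitals. The Esyt1 window touches an annotated UTR and is not printed, and the Fgfr4 and Ccnd3 windows were widened because their nearest palindromes lay 101 and 99 bp from the middle summit of the 6 libraries. Each region is named by its nearest protein-coding gene.
Fgfr4, chr13:55171526-55171825: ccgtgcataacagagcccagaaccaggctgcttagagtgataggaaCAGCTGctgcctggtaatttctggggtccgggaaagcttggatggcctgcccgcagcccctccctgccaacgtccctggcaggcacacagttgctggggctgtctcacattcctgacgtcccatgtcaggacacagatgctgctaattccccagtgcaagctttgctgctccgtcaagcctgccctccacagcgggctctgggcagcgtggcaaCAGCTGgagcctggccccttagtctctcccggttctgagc
Serpinh1, chr7:99360166-99360285: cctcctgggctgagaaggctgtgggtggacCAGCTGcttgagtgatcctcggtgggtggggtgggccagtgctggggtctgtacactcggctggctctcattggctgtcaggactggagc
Ccnd3, chr17:47521826-47522125: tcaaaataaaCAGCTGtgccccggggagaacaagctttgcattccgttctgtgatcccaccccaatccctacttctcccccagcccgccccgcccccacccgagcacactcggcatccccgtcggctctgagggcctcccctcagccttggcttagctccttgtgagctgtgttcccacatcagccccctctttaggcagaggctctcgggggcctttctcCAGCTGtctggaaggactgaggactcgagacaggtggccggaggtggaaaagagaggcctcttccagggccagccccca
BC034090, chr1:155234216-155234335: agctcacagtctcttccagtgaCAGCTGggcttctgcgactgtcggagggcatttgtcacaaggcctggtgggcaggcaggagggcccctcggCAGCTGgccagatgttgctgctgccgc
Runx1, chr16:93006716-93006835: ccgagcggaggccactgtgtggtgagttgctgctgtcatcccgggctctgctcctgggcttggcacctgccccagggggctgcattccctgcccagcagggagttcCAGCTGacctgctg
Scx, chr15:76461616-76461735: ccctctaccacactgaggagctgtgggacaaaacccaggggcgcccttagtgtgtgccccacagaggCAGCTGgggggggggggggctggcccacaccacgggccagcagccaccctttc
Ahdc1, chr4:133013516-133013635: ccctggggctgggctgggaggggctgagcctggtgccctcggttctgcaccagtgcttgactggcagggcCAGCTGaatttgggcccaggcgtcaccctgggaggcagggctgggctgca
Sik1, chr17:31790866-31790985: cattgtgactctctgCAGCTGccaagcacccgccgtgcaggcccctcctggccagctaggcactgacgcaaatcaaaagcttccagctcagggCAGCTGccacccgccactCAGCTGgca
Shb, chr4:45473266-45473385: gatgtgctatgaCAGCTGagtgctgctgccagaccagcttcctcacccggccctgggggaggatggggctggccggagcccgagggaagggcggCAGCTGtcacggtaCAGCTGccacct
Serpinh1, Runx1, Scx and Ahdc1 held 1 palindrome in the window printed, BC034090 held 2, and Sik1 and Shb held 3 each. The Fgfr4 and Ccnd3 windows held 2 each over 300 bp.

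The region with the highest lowest percentile lay at chr13:55170201-55172950, between genes, 15459 bp downstream of the start of Fgfr4, a receptor for fibroblast growth factors. Its maximum signal was 319 CPM, 375 CPM and 127 CPM in no dox replicates 1, 2 and 3 and 856 CPM, 588 CPM and 264 CPM in +dox replicates 1, 2 and 3, where CPM is coverage scaled to library size. Replicate 3 was the lowest of its group in both conditions, and the ranges of the conditions overlapped. It was the highest shared region in no dox replicates 1 and 3 and in +dox replicates 1 and 2. In no dox replicate 2 and +dox replicate 3 it stood at percentile 99.98, below another shared region. Another member at chr13:55168351-55170000 ended 200 bp before it and had no dox heights of 71.2, 77.7 and 25.3 CPM and +dox heights of 236, 134 and 60.02 CPM.

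The next region, chr7:99359201-99362850, lay between genes 7787 bp upstream of Serpinh1, the chaperone that folds collagen in the endoplasmic reticulum. Heights were 242, 264 and 91.7 CPM without dox and 524, 465 and 234 CPM with dox, and again only replicate 3 of the +dox group fell among the no dox values. The whole region held 8 copies of CAGCTG. The third, chr17:47521051-47524200, lay in an intron of Ccnd3, a D-type cyclin, 17385 bp into the gene. It reached 128, 152 and 72.0 CPM without dox and 348, 249 and 162 CPM with dox, so that all 3 +dox libraries lay above all 3 no dox libraries in CPM. Divided by each library's median over shared regions the conditions overlapped, at 16.2, 16.0 and 12.9 without dox and 20.0, 16.6 and 14.8 with dox. No whole E-box of any kind lay inside the window of 100 bp on each side of the middle summit, since the palindrome centred 99 bp away crosses its edge, and the 3150 bp of the region held 8 copies of CAGCTG.

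The other 7 of the 10 strongest were spread over introns, an intergenic stretch and a promoter. The Runx1 region, chr16:93006051-93007850, was 180802 bp upstream of the nearest protein-coding start, that of the transcription factor Runx1, and gave 133, 173 and 66.6 CPM without dox and 281, 221 and 137 CPM with dox. The region at chr15:76459901-76464550 lay in an intron of Bop1, a ribosome assembly factor, 4706 bp downstream of the start of Scx, the gene of the tendon factor Scleraxis. It held 13 copies of CAGCTG. The Sik1 region, chr17:31787701-31791950, lay in an intron of the transcript AC166654.1, 61749 bp downstream of the start of Sik1, a kinase that acts on class II histone deacetylases, and reached 182, 180 and 54.4 CPM without dox and 512, 321 and 133 CPM with dox. Introns of BC034090 (chr1:155232151-155235100), Ahdc1 (chr4:133010901-133017150) and Shb (chr4:45471951-45476250, an SH2 domain adaptor) held 3 more. The promoter was that of Esyt1 (chr10:128524601-128527150), which tethers the endoplasmic reticulum to the plasma membrane. In each of the 10 regions replicate 3 gave the lowest value of its group in both conditions.

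**Figure D1:**
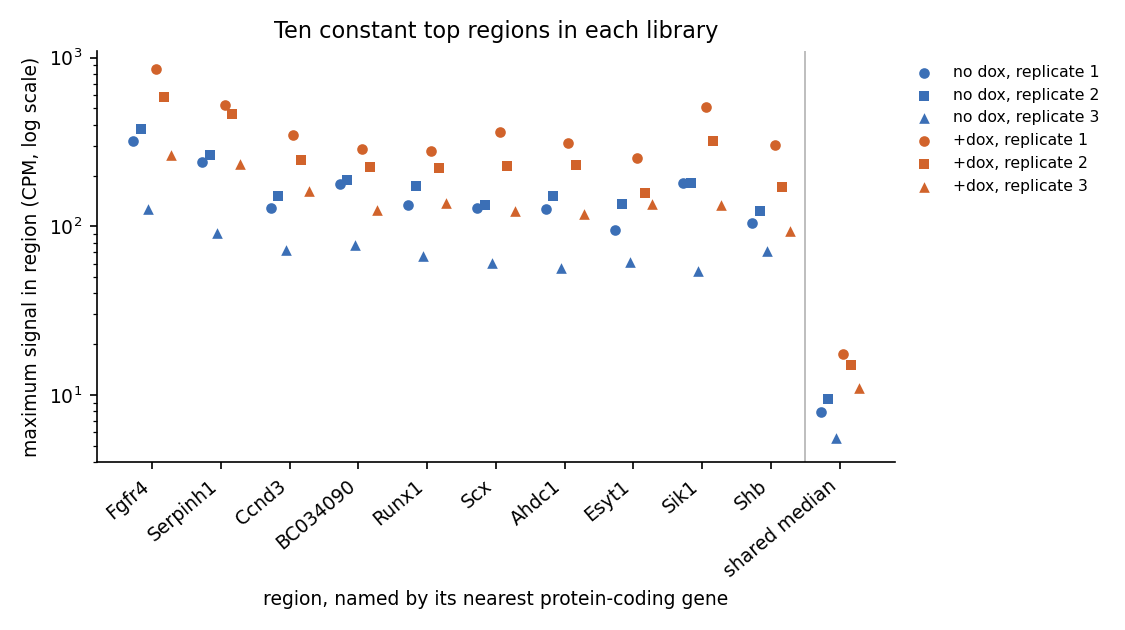
Maximum signal in CPM (log axis) of the 10 regions with the highest lowest percentile, 1 point per library, and the median over all 4838 shared regions at the right. No dox replicate 3 (blue triangles) is the lowest library for every region, and the regions lie above 50 CPM in all 6 libraries while the shared medians lie between 5.57 and 17.4 CPM.

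The libraries themselves were unequal. They held between 2868000 and 8030000 alignments, as worked out from the step of the signal values, and 9389 to 53661 peaks. The replicates numbered 3 were closest to each other, with a rank correlation of 0.83 between their heights over the 4838 shared regions. With the 4 libraries numbered 1 and 2, no dox replicate 3 had correlations of 0.32 to 0.69 and +dox replicate 3 of 0.40 to 0.76, in both cases lowest with +dox replicate 1. Those 4 libraries had 0.65 to 0.86 among themselves, so +dox replicate 3 lay partly within their range. These correlations describe regions that share the genome and its base composition. With only the 4 libraries numbered 1 and 2 in the rule, an alternative added for the other results after the data were seen, 545 regions would have entered, and without no dox replicate 3 alone 386 would have. At the low end the members still rested on counts: the weakest member height was 64 alignments deep in no dox replicate 3 and 242 deep in +dox replicate 3.

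The members were several times higher than the typical shared region in each library. Their median height was 49.6, 55.1 and 24.0 CPM in the no dox libraries and 108, 97.9 and 55.0 CPM in the +dox libraries, in replicate order. The median over all shared regions was 7.91, 9.48 and 5.57 CPM and 17.4, 15.0 and 11.0 CPM. The ratio of the member median to the shared median ran from 4.31 in no dox replicate 3 to 6.52 in +dox replicate 2. The set had no gap at its edge. The 3 members nearest to the cut-off were the promoters of Tmem123 and Tfb1m and an intergenic region nearest to Gas1, with lowest percentiles of 85.13, 85.08 and 85.08. Just outside were the promoters of Tmem143 and Dcaf15 and an intron of Ttll11, at 84.92, 84.76 and 84.70.

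Regions chosen in one condition were mostly also high in the other. Of all shared regions, 8.23% lay at or above the 85th percentile in all 3 no dox libraries, which is 398 regions, and 6.35% did so in all 3 +dox libraries, which is 307 regions. Of the 398, 69.3% were at or above the cut-off in +dox replicate 1, 87.7% in replicate 2 and 89.2% in replicate 3, and 63.6% were in all 3. Of the 307, 97.7%, 98.4% and 84.0% were at or above it in no dox replicates 1, 2 and 3, and 82.4% in all 3. The regions that passed in both are the 253 members, so these shares describe how the set was made. When 5 libraries chose the regions and the other one was read, between 78.6% (+dox replicate 1) and 99.2% (no dox replicates 1 and 2) of the chosen regions passed. +dox replicate 1 and no dox replicate 3 (85.2%) thus removed the most regions from the set.

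Fewer of the members than of the other shared regions had their summit at a promoter. By the middle of the 6 summits, 102 of 253 members (40.3%, 95% Wilson interval 34.5 to 46.5) lay within 1 kb of an annotated start site, against 2567 of 4585 other shared regions (56.0%). Introns held 86 members (34.0% against 23.9%) and intergenic sequence 60 (23.7% against 17.4%). Coding exons held 2 members, UTRs 2 and exons of noncoding genes 1. With each library's own summits, the promoter share of members ran from 39.5% to 40.7% and that of the others from 55.0% to 55.9%, a mean difference of -15.6 ± 0.34 points (SD, n = 6 libraries). The difference was below 0 in 6 of 6 libraries (sign-flip permutation test, exact and two-sided, p = 0.03125, the smallest that 6 libraries allow, and 0.0781 after adjustment for 5 tests). With so few libraries no adjusted p of these 5 tests could fall under 0.05, so the adjusted value cannot decide. The libraries read the same stretches of DNA, so the sign-flip p speaks only to the spread between libraries.

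**Figure D2:**
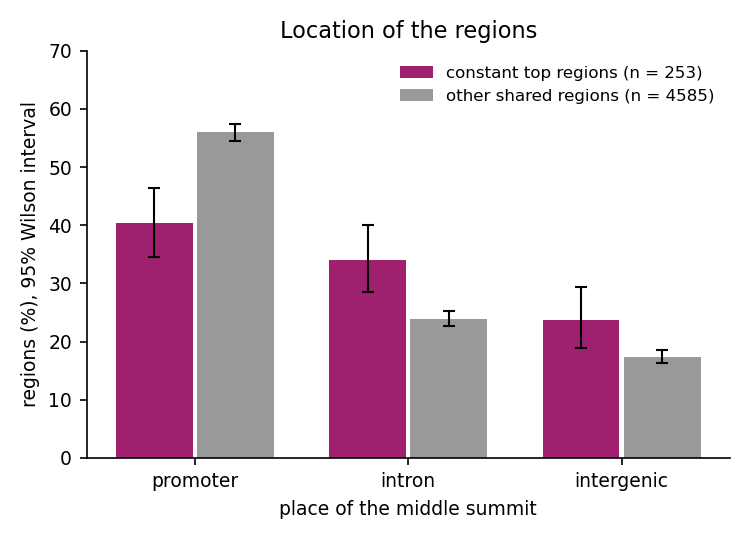
Share of regions (%) whose middle summit lay at a promoter (within 1 kb of a start site), in an intron or between genes, for members and other shared regions, with 95% Wilson intervals that cover counting error only. Members are at 40.3% promoters against 56.0%, and at 34.0% introns against 23.9%.

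Distance and base composition went with this. The median distance from the middle summit to the nearest start site was 2810 bp in members and 430 bp in the others. The 200 bp around the summit held a median of 6 CpG dinucleotides in members and 9 in the others, at the same median GC content of 61.5%. Among promoter regions alone the medians were 11 and 16 CpG dinucleotides, and away from promoters 5 and 4. Median GC content was 63.75% and 66% at promoters and 60.5% and 58% elsewhere, for members and others. The 6 libraries placed their summits close together: the median distance between the outermost summits of a region was 100 bp in members and 150 bp in the others, on a grid of 50 bp. Member regions were also wider, with a median merged width of 2450 bp against 1750 bp, and width goes with the height that chose them.

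Members came from all 19 autosomes and none from the X chromosome. Of 58 shared regions on the X chromosome 0 were members, which allows a share of up to 5.17%, close to the 5.23% of all shared regions. Chromosome 15 held 26 members, 7.76% of its 335 shared regions (95% Wilson interval 5.35 to 11.1). Of the 253 members, 18 neighbouring pairs were at most 50 kb apart, and of all 4838 shared regions 1709 neighbouring pairs were. A smaller set has wider gaps by its size alone, so these counts do not show whether members cluster. Among the 18 were the Fgfr4 pair, a pair in Plec 650 bp apart and the Scx pair 700 bp apart.

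Most member summits held the palindromic E-box. CAGCTG lay whole within 100 bp of the middle summit in 182 of 253 members (71.9%, 95% Wilson interval 66.1 to 77.1) and in 2078 of 4585 other shared regions (45.3%, 43.9 to 46.8). Moved 10 kb to one side, the same windows held it in 7.51% and 10.6%. With each library's own summits, 75.9%, 75.1% and 66.0% of members held it in no dox replicates 1, 2 and 3 and 74.7%, 75.5% and 75.1% in +dox replicates 1, 2 and 3, while the other shared regions ran from 39.7% to 47.1%. The mean difference was 29.2 ± 1.67 points (SD, n = 6 libraries), above 0 in 6 of 6 libraries (by the same exact sign-flip test p = 0.03125, or 0.0781 adjusted for 5 tests). Again the adjusted p could not have fallen under 0.05, and the test again compares the same DNA in each library.

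The difference was seen in promoters and away from them. At promoters 63.7% of members and 33.0% of the others held CAGCTG, and elsewhere 77.5% and 61.0%. With promoter regions left out by their centres the mean difference over libraries was 20.5 points. In the 4 libraries numbered 1 and 2, with the 545 regions those libraries would choose, it was 34.2 points.

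Members also held more copies. At least 2 copies lay within 100 bp of the summit in 84 members (33.2%, 95% Wilson interval 27.7 to 39.2) and in 10.6% of the others, and at least 3 in 9.88% and 2.14%. The mean was 1.17 copies in members and 0.594 in the others. Over whole regions, which are wider in members, all but 3 members held the palindrome (98.8% against 83.7%), at 1.42 copies per kb against 1.05. The nearest copy had a median distance of 46.5 bp from the middle summit in the 250 members with one and 81 bp in the other shared regions with one. The bin of 20 bp with the most copies lay 20 to 40 bp from the summit on the side of higher coordinates, with 19.4 per 100 members and 8.35 per 100 other regions. The matching bin on the other side held 9.88 per 100 members. Copies within a window lay at many distances from each other: among 118 neighbouring pairs in members the median distance was 48.5 bp and the most common distance, 32 bp, was found 5 times.

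**Figure D3:**
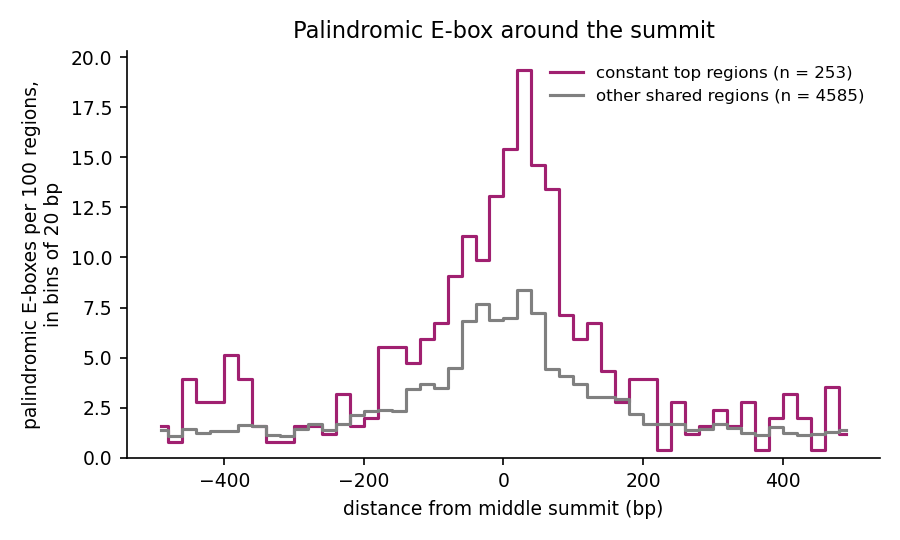
Copies of the palindromic E-box per 100 regions in bins of 20 bp, against distance from the middle summit in bp, for 253 members and 4585 other shared regions. Both curves are highest near the summit and the member curve reaches 19.4 against 8.35 per 100 regions in the bin from 20 to 40 bp to the right of the summit.

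The bases beside the palindrome had much the same shares in both sets. On either side of the copy nearest to the summit, read outward-in on the strand where it precedes the palindrome, the adjacent base was G in 44.3% of 370 flanks in members and 43.1% of 4204 in the others. It was A in 25.9% and 26.02%, C in 23.0% and 22.4%, and T in 6.76% and 8.52%.

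The E-box share was higher among the highest shared regions than among the lowest in each library. In no dox replicate 1 the share with CAGCTG at the library's own summit was 20.7% among regions below the 10th percentile and 73.4% among those above the 90th. The same shares were 26.6% and 70.4% in no dox replicate 2, 20.0% and 55.1% in no dox replicate 3, 39.8% and 71.3% in +dox replicate 1, 31.6% and 72.6% in +dox replicate 2, and 19.1% and 69.5% in +dox replicate 3. The course between these ends differed. In +dox replicate 1 the share stayed between 37.4% and 40.1% up to the 60th percentile and then reached 57.9% and 71.3% in the last bins. In both replicates numbered 3 the highest bin lay slightly below the one before it, at 55.1% after 56.3% without dox and 69.5% after 73.3% with dox. Promoter share did not run the same way in every library. It went from 73.4% in the lowest bin to 42.5% in the highest in no dox replicate 1 and from 86.1% to 27.2% in +dox replicate 3, but from 35.98% to 56.8% in +dox replicate 1. The top 15% of single libraries were promoters in 26.6% (+dox replicate 3) to 59.4% (+dox replicate 1) of regions, and the members, which had to pass in all, were at 40.3%.

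**Figure D4:**
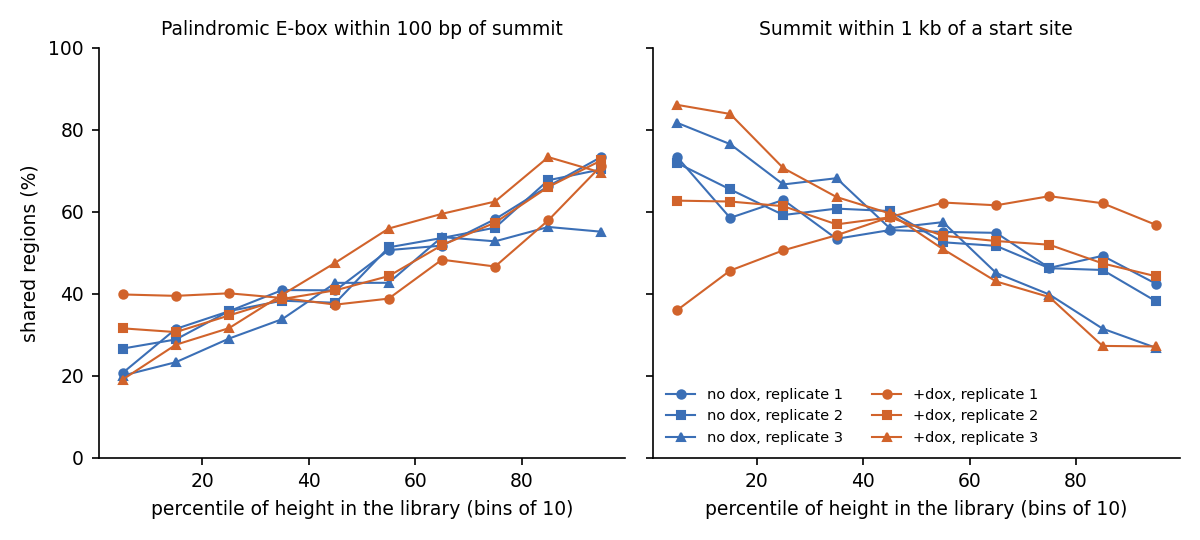
Share of shared regions (%) with a palindromic E-box within 100 bp of the library's own summit (left) and with the middle summit within 1 kb of a start site (right), in bins of 10 percentiles of height, 1 line per library. The E-box share is higher in the highest bin than in the lowest in all 6 libraries, and the promoter share falls in 5 and rises in +dox replicate 1.

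Other E-boxes and other motifs differed less. Any CANNTG was found within 100 bp of the summit in 92.9% of members and 73.7% of the others, but the same windows moved by 10 kb held it in 69.2% and 67.5%. CAGGTG was found in 20.9% and 18.1%, CAGATG in 18.2% and 15.0%, CAACTG in 12.6% and 9.16%, and CACGTG, the form that Myc and related factors prefer, in 5.14% and 5.98%. All letters were searched on both strands, and CANNTG counts every E-box, CAGCTG included.

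AP-1, the Fos and Jun dimer, was searched as TGANTCA. It was found in 16.2% of members and 13.3% of the others by the middle summit, and 5.14% and 6.11% of the moved windows. The mean difference over libraries was 2.26 ± 1.84 points (SD, n = 6 libraries), above 0 in 5 of 6 libraries (by the same exact sign-flip test p = 0.09375, or 0.156 adjusted for 5 tests). Away from promoters it was below 0, at -3.21 points. No dox replicate 3 was the library below 0, at -0.60 points. With that library left out and the shared regions and members chosen anew (386 members), the mean difference was 4.63 points.

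The Tead letters GGAATG were found in 17.8% of members (95% Wilson interval 13.6 to 23.0) and 11.6% of the others (10.7 to 12.6), with 24.5% against 16.1% away from promoters and 7.84% against 8.10% at them. The Meis letters TGACAG were found in 24.5% and 16.6%. These letters can run into the palindromic E-box, and with such joined copies left out the shares were 19.0% (14.6 to 24.3) and 14.0% (13.0 to 15.0). The GC box GGGCGG was found in 35.97% and 44.6%, with 56.9% and 65.1% at promoters and 21.9% and 18.6% elsewhere. The CCAAT box was found in 20.6% and 27.1%. Runx letters TGTGGT were at 14.6% and 14.5%, Mef2 letters at 1.19% and 1.88%, Srf letters (CArG box) at 1.98% and 0.938%, Ets letters CCGGAA at 8.30% and 10.9%, Gata letters AGATAA at 3.16% and 3.29%, Nfi letters at 2.77% and 1.85%, and Stat letters at 0% and 0.851%. None of these shares was tested, and a match is a run of letters, not a bound factor.

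By the middle summit alone, 235 of 253 members (92.9%) held a whole E-box of any kind within 100 bp. Of the other shared regions 73.7% did. In 3 members no such E-box lay within 100 bp of the summit in any library. Each library's own summit gave a further window in which an E-box could be found. This count was not compared with the other shared regions, so it does not set the members apart. The 3 members were the E2f3 promoter, an intergenic region nearest to Rab11fip4 and the Asf1b promoter. The E2f3 region, near a start of a cell cycle transcription factor, gave 44.7, 63.2 and 56.6 CPM without dox and 71.8, 67.3 and 68.0 CPM with dox, with its nearest palindrome 345 bp from the middle summit. All 3 held CAGCTG elsewhere in the region, at 345, 167 and 207 bp.

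Nearest genes were counted from the centre of each region to the closest protein-coding start. The 253 members pointed to 237 of 21924 protein-coding genes (1.08%), and 35.97% of members lay within 1 kb of such a start, 60.9% within 10 kb and 89.7% within 50 kb, against 52.9%, 70.5% and 90.2% of the other shared regions. A nearest gene is a place name and carries no evidence of regulation. Of 346 genes on 20 lists of muscle, signalling and cell biology genes, 26 (7.51%) were nearest to a member. Among genes nearest to any shared region, 26 of 175 listed genes (14.9%) and 237 of 3633 genes in all (6.52%) were nearest to a member. The lists were chosen with results of these data known, so this difference was not tested. The 26 genes took 32 members, of which 23 held CAGCTG at the middle summit. Of 79 genes on lists for ribosomal proteins (20 genes) and for neurons (20), liver (19) and blood cells (20), 0 were nearest to a member, but only 5 of them were nearest to any shared region.

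Among 15 myogenic transcription factors, 2 were nearest to members, Myod1 itself and Srf. Both Myod1 regions were intergenic and upstream, 34748 bp (chr7:46341151-46342300) and 26173 bp (chr7:46349151-46351450) from its start. The farther one gave 58.6, 74.1 and 19.7 CPM without dox and 169, 126 and 66.7 CPM with dox, with a palindrome 15 bp from the summit. The nearer one gave 37.2, 39.7 and 15.4 CPM and 85.1, 69.0 and 34.9 CPM. In both regions +dox replicate 3 fell among the no dox values. The Srf promoter, of the serum response factor, gave 55.4, 74.1 and 51.0 CPM and 144, 89.5 and 102 CPM, with all 3 +dox libraries above the no dox ones in CPM, and its palindrome lay 3 bp from the summit.

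Lists of E-box repressors, of E proteins and Id inhibitors, of Runx and Tead factors and of AP-1 genes followed. Of 12 genes listed as E-box repressors 3 were nearest to members and 8 to a shared region. The 3 were Zeb1 (intergenic, 89445 bp), Hes1 (54983 bp upstream, at the start of the noncoding gene 4632428C04Rik) and Hes6 (promoter, 212 bp). Hes6, which is induced in muscle differentiation, gave 58.2, 51.9 and 15.4 CPM without dox and 192, 93.4 and 36.1 CPM with dox. Of 7 E proteins and Id inhibitors 0 were nearest to a member and 5 to a shared region. These are too few to tell 0 from the 6.52% of all genes with a shared region. Of 13 Runx and Tead factors and cofactors 2 were nearest to a member and 9 to a shared region. The 2 were Runx1 and Vgll4, a Tead cofactor, with its member in an intron. Of 10 AP-1 genes 2 were nearest to a member and 9 to a shared region. The 2 were Fos, with 2 intergenic members at 18414 bp upstream and 22915 bp downstream, and Junb. The Junb region was 8450 bp wide, with its centre 158 bp from the start of Junb but its middle summit intergenic, outside any promoter.

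Of 110 structural muscle genes on 5 lists, 3 (2.73%) were nearest to a member, and they were 7.32% of the 41 such genes nearest to any shared region, near the 6.52% of all genes with a shared region. Of 43 sarcomere genes 0 were nearest to a member and 12 to a shared region. Of 15 genes of excitation-contraction coupling only Jph2, a junctophilin, had one, in an intron. Of 22 myoblast fusion genes only Cdh15, M-cadherin, had one, in an intron 2460 bp into the gene (chr8:122847651-122853200), which gave 81.9, 84.9 and 19.3 CPM without dox and 225, 151 and 73.7 CPM with dox and held 10 palindromes. Of 12 genes of the neuromuscular junction only Chrna1, the alpha subunit of the acetylcholine receptor, had one, at its promoter, at 40.7, 44.7 and 25.1 CPM without dox and 57.5, 71.7 and 37.6 CPM with dox. Of 18 dystrophin complex genes 0 had one, though only 5 were nearest to any shared region.

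Growth, matrix and signalling genes made up the rest. Of 16 genes of the cell cycle and its exit 3 had members: Ccnd3 with 2, Gadd45g with 2, at 128857 and 178707 bp and Cdk6 at 189384 bp. The other Ccnd3 member was its promoter, at 58.6, 59.2 and 27.0 CPM without dox and 61.0, 113 and 69.7 CPM with dox. Of 25 collagen and collagen folding genes 3 did, Serpinh1, Col1a1 (19523 bp upstream) and an intron of Col4a2. Fgfr4 was the 1 gene of 16 for FGF signalling, Tcf7l2 and Wnt9a the 2 of 20 for Wnt, Smad3 the 1 of 21 for TGF-beta and BMP, Myh9 and Tns1 the 2 of 30 for actin and focal adhesion, Sik1 the 1 of 10 for histone deacetylases and Sik kinases, with another member 36822 bp upstream, and Prdm2 the 1 of 13 for chromatin cofactors. The 12 genes of the IGF axis and the 16 of the Notch pathway had 0, though only 4 and 9 of them were nearest to any shared region.

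Of the 237 genes 12 were nearest to 2 members and 2 to 3 members. The latter were Tpcn1, an endolysosomal channel, with 2 intronic regions and its promoter, and Plxna1, a semaphorin receptor, with 2 regions inside the gene, of which 1 lay at the start of the transcript Gm44207, and another 81463 bp away. The others were Fgfr4, Plec, Sept9, 7530416G11Rik, Sik1, Ccnd3, Scx, Mical2, Myod1, Gadd45g, Fos and Gse1. Plec encodes plectin and Mical2 an actin oxidase, both of the cytoskeleton. A region chosen after its values were seen lay in an intron of Nctc1, a noncoding muscle transcript near Igf2 (chr7:142549551-142552300), at 170, 229 and 107 CPM without dox and 133, 224 and 203 CPM with dox, with overlapping conditions in CPM. Divided by each library's median over shared regions, its heights were 21.5, 24.2 and 19.2 without dox and 7.62, 14.9 and 18.5 with dox. Those did not overlap, and limma, used below, gave an adjusted p of 0.984.

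On the deposited CPM scale nearly everything was higher with dox. The mean log2 height of all 253 members and of 4650 of the 4838 shared regions was higher in +dox, by a median of 1.05 in members and 0.91 over all shared regions. All 3 +dox heights lay above all 3 no dox heights in 87 members (34.4%) and in 27.5% of all shared regions. The scale holds no spike-in, so this common shift cannot be told apart from a difference in how much of each library lay in peaks. Heights were therefore divided by each library's median over shared regions, and changes are given relative to it.

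On that relative scale no member was called between conditions. limma called 0 of 4838 shared regions (0%) at an adjusted p under 0.05 and 124 had an unadjusted p under 0.05, of which 0 were members. The rule bounds this contrast: a member had to stay at or above the 85th percentile in both conditions and a region with a large change could not enter. The median log2 difference, +dox minus no dox, was 0.13 in members and -0.02 over all shared regions, with a median standard error of 0.38 for a member. The members' differences ran from -0.78 to 0.90. The difference was above 0 in 157 members (62.1%) and in 48.7% of all shared regions. With quantile normalization instead, the median log2 difference was 0.004 in members and 0.02 over all shared regions. The lean of the members toward +dox was thus not seen on that scale. Quantile normalization gives every library the same distribution of heights. That holds the highest regions close together, so it cannot test the lean. With the replicate number as a block limma called 1 region, which was lower in +dox and was not a member, and the smallest adjusted p of a member was 0.124. In that fit 52 members (20.6%, 41 of them higher in +dox) and 627 of all shared regions (13.0%) had an unadjusted p under 0.05. In the 4 libraries numbered 1 and 2 limma called 7 of 6314 regions, all lower in +dox and 0 of them among the 545 top regions.

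Regions whose groups did not overlap were counted as well, with the same bound on the members. All 3 +dox relative heights lay above all 3 no dox ones in 8 members (3.16%), against 3.37% of all shared regions, and below them in 9 members (3.56%), against 5.17%. Among promoter members the median log2 difference was 0.16, in introns 0.12 and between genes 0.11. For the 10 strongest members the differences lay between -0.38 (BC034090, SE 0.35) and 0.28 (Sik1, SE 0.45). At the ends of the range, named after their values were seen, were an intergenic region nearest to Gpc1, a cell surface proteoglycan that binds FGF, at 0.90 (SE 0.45) and the Susd1 promoter at -0.78 (SE 0.44). limma gave both an adjusted p of 0.984. The Gpc1 region stood at 7.53, 6.62 and 3.46 times the library median without dox and 15.3, 11.8 and 6.25 times with dox, and the conditions overlapped.

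**Figure D5:**
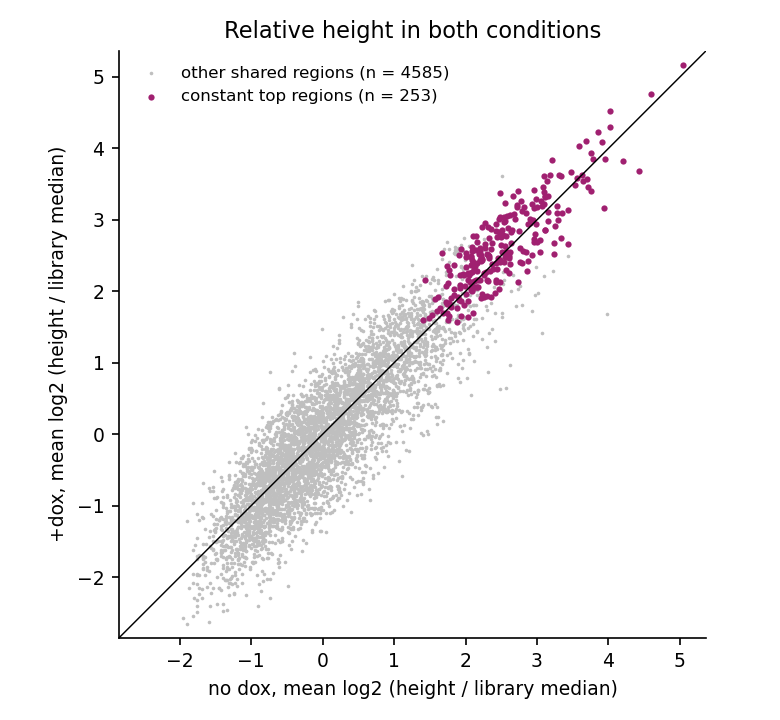
Mean log2 of height over the library median of shared regions, no dox (horizontal) against +dox (vertical), for 253 members and 4585 other shared regions, each point a mean of 3 libraries. Members fill the upper right corner because height chose them, and they lie on both sides of the line of equality, with 157 (62.1%) above it and 96 below, against 48.7% of all shared regions above it.

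Measures that the rule did not use were also compared between conditions within the members. The share with CAGCTG at the library's own summit was 72.3 ± 5.49% without dox and 75.1 ± 0.395% with dox (SD, n = 3 libraries each), a difference of 2.77 points (two-sided exact permutation test over libraries, p = 0.9, or 1 after adjustment for 5 tests). With no dox replicate 3 left out and the members chosen anew, it was -0.17 points. The median width of the member peaks was 1100, 1250 and 1700 bp without dox and 950, 1100 and 2000 bp with dox, a difference of 0 bp between the group means (by the same exact permutation test p = 1). Neither difference exceeded the spread between replicates, and with 3 libraries against 3 the smallest p is 0.1.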

How the data were processed

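MyoD1 CUT and RUN was measured in 3 no dox and 3 +dox libraries of C2C12 MyoD1::Halo + iMyoD1 cells. The authors processed reads with nf-core/cutandrun on mm10, removed blacklisted regions, scaled coverage to CPM and called peaks per library with SEACR in relaxed mode, per the study's methods and the submitters' processing notes. The control library or threshold used for peak calling was not given in the sources used here. The deposited lists give each peak's total and maximum signal, which are CPM coverage with no spike-in. The 3 wild-type libraries were not analysed here.

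Overlapping or touching peaks of all lists were joined, and heights, percentiles and members were derived as the report states. Maximum signals were whole multiples of a common step per library (within 0.02 of a step), taken as the worth of 1 alignment, and this gave depth. Peak coordinates were multiples of 50 bp, and no chromosome of GRCm38 was exceeded. Sites were placed with GENCODE M21. A promoter summit lay within 1 kb of a start site, and motifs had to lie whole within 100 bp of the summit. The middle summit is the median of the 6 summits.

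Shares were compared by exact two-sided sign-flip or permutation tests over libraries, as one family of 5 with Benjamini-Hochberg adjustment, and log2 relative heights by limma 3.58.1 (trended eBayes, no pseudocount) over all 4838 shared regions. Simulated data were used to check that the member rule and the limma step ran as written. The simulated members stood far above the rest and the simulated libraries varied independently, unlike the real ones. The checks thus do not give the sensitivity of limma in these data. Python 3.11.15, NumPy 2.4.6, pandas 2.3.3, SciPy 1.17.1 and R 4.3.3 were used. Wilson intervals at 95% and limits on counts of 0 (3 counts) cover counting error only.

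The members, gene lists, motifs and tests were chosen with earlier results of these data known. Regions were named as the 10 members with the highest lowest percentile, the 3 on either side of the cut-off, members nearest to a listed gene, genes with 2 or more members, and members without an E-box. Libraries with the same replicate number deviated together (correlations of 0.49, 0.27 and 0.63 over shared regions), and the numbers were taken to pair the libraries. Crossed pairs of replicates 1 and 2 gave 0.26 (no dox 1 with +dox 2) and 0.22 (no dox 2 with +dox 1). Crossed pairs with a replicate 3 gave -0.56 to -0.32. The values thus set replicate 3 apart but did not clearly pair 1 with 1 and 2 with 2. The labels name no batch or day, so the replicate block rests on the numbers and these correlations.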

Additional observations from a re-analysis of the deposited data

How the results depend on the processing

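The number of members, 253, became 157 with a cut-off at the 90th percentile and 545 with the 4 libraries numbered 1 and 2, and lay between 257 and 386 when each library was left out, highest without no dox replicate 3. Whenever a library was left out, the shared regions and members were chosen anew. The CAGCTG difference of 29.2 points stayed above 0 in every alternative. It was 27.5 with the cut-off at the 90th percentile, 22.0 with total signal as height, 34.2 with the libraries numbered 1 and 2, 20.1 in windows of 50 bp, 20.5 over 1 kb from start sites, 20.0 for any CANNTG and 15.1 over whole regions, and 25.2 to 33.4 when each library was left out. The promoter difference of -15.6 points stayed below 0 in every alternative. It was -16.5 and -14.4 with cut-offs at the 80th and 90th percentiles, -12.3 with the libraries numbered 1 and 2, -17.3 and -14.1 for start sites within 500 bp and 2 kb, -17.6 for protein-coding start sites, and -20.4 to -14.6 when each library was left out. The AP-1 difference of 2.26 points changed sign, to -0.10 with the cut-off at the 90th percentile and -3.21 over 1 kb from start sites. It was 0.39 in windows of 50 bp, 6.39 in windows of 250 bp and 1.34 to 4.63 when each library was left out. The cause of these moves was not tested.

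Between conditions, the CAGCTG difference of 2.77 points became -0.46 with the libraries numbered 1 and 2 and -1.05 in windows of 250 bp, and lay between -0.17 and 4.67 when each library was left out. With the replicate block its value stayed at 2.77 points (exact sign-flip permutation p = 0.75 over 3 pairs) and that of peak width at 0 bp. The number of regions called by limma, 0, became 1 with the replicate block and 7 with the libraries numbered 1 and 2, an alternative chosen after seeing the data, and was 0 under the deposited CPM scale, quantile normalization, total signal and each left-out library. Unadjusted p under 0.05 was reached by 1158 regions on the deposited CPM scale and 627 with the replicate block. The replicate block changed no other call.

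The members depend on depth and list length, since a shared region needs a peak in all 6 lists, which hold 9389 to 53661 peaks. With lists of equal length 185 regions were members. The 3 libraries per condition, no dox replicate 3 and +dox replicate 1 that correlate least with each other, 1 clone and the lack of an untagged background are further limits. The exact tests over libraries read the same DNA in each library, so they carry no information on other regions or cells.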
